A study of Mus musculus with 20 samples.

Results

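Klf1, Gata1, Slc4a1, Epb42, Ank1, Car1 and Rhag are genes of the red blood cell lineage, measured here on all probe sets that carry one of these symbols in the platform annotation. The annotation gave 13 probe sets for these 7 genes, of 45037 probe sets once the Affymetrix controls are set aside and of 18193 genes with a probe set of their own symbol, and 11 of the 13 were bright enough to be tested. An eighth gene of the set, Ahsp, was matched to no probe set by its symbol and was not analysed here. Each gene was read in 20 samples, 10 of them immunoprecipitations with iron regulatory protein 2 (IRP2) and 10 control reactions without the protein. Reactions of a tissue with the same replicate number were treated as pairs, 10 in all, which the labels do not state. The IRP2 was recombinant with a His tag, each reaction took 50 µg of total RNA, and 120 ng of the recovered RNA was amplified in 2 cycles and hybridised to an Affymetrix Mouse Genome array. Duodenum, liver and spleen RNA was pooled from 4 C57BL6/J mice that ate an iron-poor diet (iron below 10 mg per kg) for 21 days after weaning. Bone marrow and brain RNA was pooled from 6 C57BL6/J mice, 8 to 10 weeks of age, that ate an iron-normal diet. Each tissue has 2 control and 2 IRP2 arrays, females and males were mixed, and no group carries a genetic change. Where spleen is set against bone marrow, the effects of tissue, diet and age cannot be told apart. The labels do not say that the replicates came from separate pools, so a p-value here measures the spread between arrays, which may be technical.

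Red blood cells are made in the marrow and, in the mouse, also in the red pulp of the spleen, where red cell production expands in anaemia. The transcription factor GATA1 turns on most genes of the lineage together with KLF1 (EKLF), which binds CACCC boxes of the globin and other erythroid genes. Late in maturation the cells build the red cell membrane: band 3 (Slc4a1), the anion exchanger, is tied to the spectrin skeleton through ankyrin 1 (Ank1) and protein 4.2 (Epb42). The Rh-associated glycoprotein (Rhag) carries the Rh proteins to that membrane, and carbonic anhydrase 1 (Car1) interconverts carbon dioxide and bicarbonate in the cytoplasm. IRP2 binds iron-responsive elements (IREs), stem-loops in mRNAs of iron metabolism. Of the mRNAs made in erythroid cells, that of Alas2, the first enzyme of heme synthesis, carries a well known IRE.

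The bases before a transcript start of Klf1, Gata1, Epb42 and Rhag are shown, the 4 of the 7 genes matched in the RefSeq promoter table used here, because these genes differ together across the tissues described next and include both lineage factors. The sequences are the 250 bases upstream of the start in that table, on GRCm38.p6, read along the gene, in lower case. The Klf1 and Epb42 starts are the outer ends of the genes in RefSeq, whereas those of Gata1 and Rhag are transcript starts inside the gene, so the whole Gata1 stretch and the bases of the Rhag stretch nearest its start, the marked match included, lie within the annotated gene. Capitals mark each match to AGATAA or TGATAA, the letters GATA1 prefers, or to CCNCNCCC, which covers the CACCC box that KLF1 binds, searched on both strands with no overlap between the matches shown. The Klf1 stretch is chr8:84901732-84901981 on the plus strand, that of Gata1 chrX:7967911-7968160 on the minus strand, that of Epb42 chr2:121036878-121037127 on the minus strand and that of Rhag chr17:40810899-40811148 on the plus strand.
Klf1: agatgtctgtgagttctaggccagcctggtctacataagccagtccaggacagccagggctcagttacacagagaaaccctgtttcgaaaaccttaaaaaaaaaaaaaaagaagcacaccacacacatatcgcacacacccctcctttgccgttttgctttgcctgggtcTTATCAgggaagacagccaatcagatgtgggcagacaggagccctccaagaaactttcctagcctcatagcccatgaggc
Gata1: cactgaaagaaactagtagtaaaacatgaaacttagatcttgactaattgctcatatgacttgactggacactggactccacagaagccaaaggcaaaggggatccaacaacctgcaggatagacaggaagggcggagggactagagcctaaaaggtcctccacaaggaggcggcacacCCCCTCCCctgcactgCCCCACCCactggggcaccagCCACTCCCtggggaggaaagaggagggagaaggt
Epb42: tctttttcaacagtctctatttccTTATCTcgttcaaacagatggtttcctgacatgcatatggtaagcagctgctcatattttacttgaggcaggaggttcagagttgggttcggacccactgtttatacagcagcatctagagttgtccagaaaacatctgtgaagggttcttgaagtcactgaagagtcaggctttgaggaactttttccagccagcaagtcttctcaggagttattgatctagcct
Rhag: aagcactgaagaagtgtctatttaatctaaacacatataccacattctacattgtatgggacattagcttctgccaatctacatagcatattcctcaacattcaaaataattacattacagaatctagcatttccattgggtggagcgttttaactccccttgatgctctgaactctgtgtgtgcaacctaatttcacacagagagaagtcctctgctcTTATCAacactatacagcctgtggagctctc
Klf1 held TGATAA on the opposite strand from 80 to 75 bases before the start, and Rhag held it from 31 to 26 bases before, also on the opposite strand. Epb42 held AGATAA on the opposite strand from 226 to 221 bases before the start. Gata1 held 3 matches to CCNCNCCC on its own strand, the nearest from 34 to 27 bases before the start. Of 32851 RefSeq promoter windows of the same length, 16.6% held AGATAA or TGATAA and 45.9% held CCNCNCCC, so neither match is rare, and a match describes letters, not a bound site.

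The arrays differed in ways that bear on these genes. Array medians lay from 5.39 to 5.55 in spleen, bone marrow and brain replicate 2, and from 5.65 to 5.71 in the other arrays. Bone marrow control replicate 1 stood apart from the other 3 bone marrow arrays: its values were spread more widely (SD 2.13 against 1.86 to 1.93), and its mean rank correlation with the spleen arrays was 0.908 against 0.824 to 0.825. Both spleen replicate 2 arrays carried liver transcripts, with a mean over 7 liver markers of 6.9 against 4.8 and 4.9 in the replicate 1 arrays. Markers of 3 tissues matched the labels: the mean of 7 brain markers was 9.7 to 10.1 in brain and at most 6.7 elsewhere, the mean of 10 B and T cell markers was 9.3 to 9.4 in spleen and at most 6.9 elsewhere, and the mean of 12 myeloid markers was 10.2 to 11.6 in bone marrow and at most 7.9 elsewhere. All values below are log2 probe set levels of recovered RNA, differences are differences of these, and levels of different probe sets are not compared.

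The 7 genes stood far higher in spleen and bone marrow than in duodenum, liver and brain, in control and IRP2 reactions alike. On the brightest probe set of each gene, all 8 spleen and bone marrow arrays lay above the 12 others for 6 of the 7 genes, and Ank1 was the exception because of 2 brain arrays. With limma over all 30153 probe sets tested, 9 of the 11 tested member probe sets were higher in spleen and bone marrow and 2 were lower. In that comparison 29% of all probe sets tested were called higher and 45.3% lower. Of the 11, 6 reached the array median on spleen and bone marrow arrays alone. Their higher calls were close to fixed by that filter and carry no weight of their own. The 2 lower calls were dim second probe sets of Epb42 and Ank1, described with their genes. In whole tissue, fewer cells of a type and less RNA per cell cannot be told apart.

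Klf1 (1418600_at, chromosome 8) encodes the factor named for the erythroid lineage. In spleen it lay at 9.51 and 10.16 in the control arrays and at 9.54 and 9.83 in the IRP2 arrays. In bone marrow it lay at 10.62 and 9.87 in the control arrays and at 9.47 and 9.96 in the IRP2 arrays. The 2 tissues overlapped, and the highest value was that of bone marrow control replicate 1. Liver followed at 6.51 ± 0.22 (SD, n = 4 arrays), then duodenum at 5.98 ± 0.11 and brain at 5.35 ± 0.36, whose 4-array ranges did not overlap. Klf1 was 3.92 higher in spleen and bone marrow than in the other tissues (SE 0.14, limma adjusted p = 1.4e-12), a 15.2-fold difference in probe set intensity.

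Gata1 (1449232_at, chromosome X) encodes the zinc finger factor of erythroid cells, megakaryocytes, mast cells and eosinophils. Its spleen values were 10.14 and 10.35 in the control arrays and 9.85 and 10.11 in the IRP2 arrays. Its bone marrow values were 11.01 and 10.51 in the control arrays and 10.22 and 10.54 in the IRP2 arrays. The other tissues were alike and low: duodenum at 5.41 ± 0.12, liver at 5.36 ± 0.07 and brain at 5.28 ± 0.11 (SD, n = 4 arrays each), with overlapping ranges. None of those 12 arrays reached its own array's median for Gata1, so the probe set was tested because of spleen and bone marrow, and its higher call there carries no weight of its own. The difference was 4.99 (SE 0.097), or 31.8-fold. Other cells that make GATA1 were present: the mean of 7 megakaryocyte and platelet markers was 7.8 to 8.0 in spleen, 8.4 to 9.1 in bone marrow and 5.8 to 6.4 in the other tissues, and its part in the Gata1 level was not tested.

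**Figure D1:**
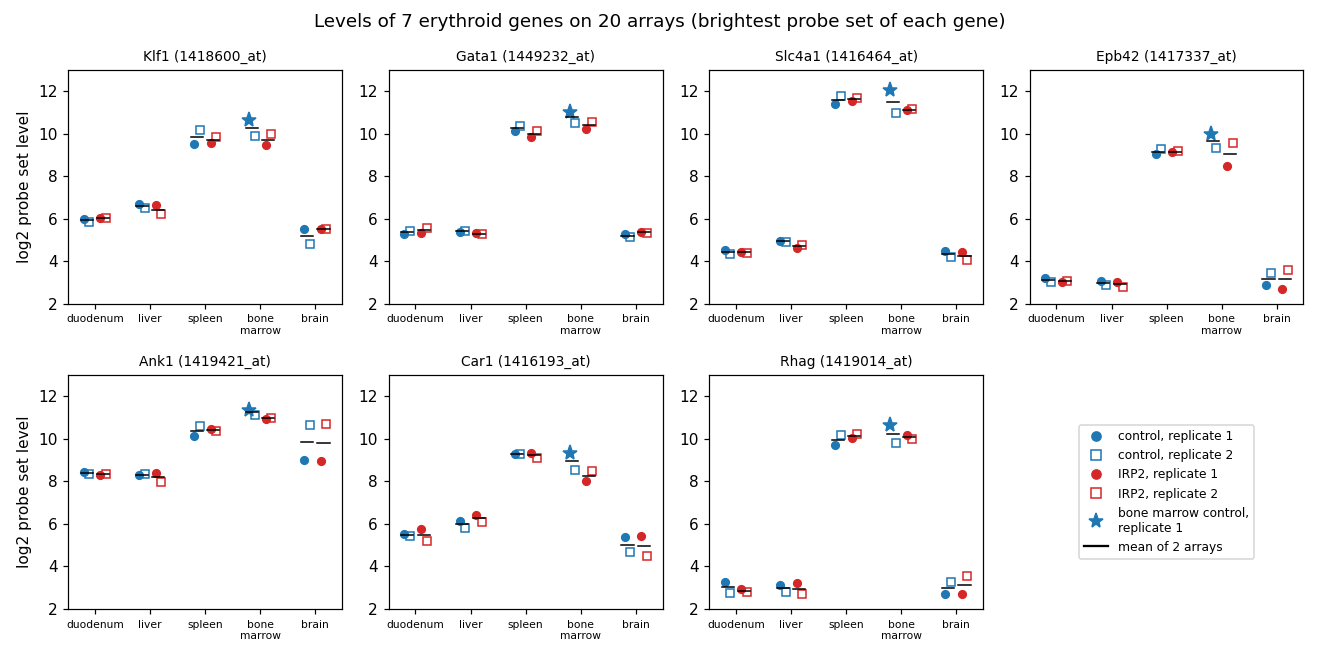
Log2 level (vertical axis) of the brightest probe set of each of 7 erythroid genes in 5 tissues, 1 panel per gene. Blue points are control arrays and red points IRP2 arrays, filled for replicate 1 and open for replicate 2, black bars are means of 2 arrays, and the star is bone marrow control replicate 1. Spleen and bone marrow lie above the other tissues for each gene but Ank1, whose brain replicate 2 arrays exceed spleen, and the star is the highest bone marrow point in all 7 panels.

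Slc4a1 (chromosome 11) encodes band 3, the most abundant integral protein of the red cell membrane. On 1416464_at it lay at 11.40 and 11.75 in spleen control, 11.55 and 11.68 in spleen IRP2, 12.02 and 10.96 in bone marrow control, and 11.09 and 11.16 in bone marrow IRP2. The first bone marrow control was above every spleen array and the other 3 bone marrow arrays were below every spleen array. In the 12 other arrays it lay between 4.04 and 4.97, at the 25.3rd to 35.7th percentile of the array, against the 98.0th to 99.4th in spleen and bone marrow. The second probe set, 1434502_x_at, showed the same split from the other tissues, with 11.45 to 12.34 against 2.92 to 4.25. Spleen and bone marrow overlapped more on it, with bone marrow IRP2 replicate 1 (11.865) above spleen control replicate 1 (11.795). The differences between the 2 sets of tissues were 6.94 (SE 0.13) and 8.51 (SE 0.15). The third, 1431743_a_at, lay between 4.08 and 5.08 on all 20 arrays, reached no array's median and was not tested.

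Epb42 (1417337_at, chromosome 2) encodes protein 4.2, a catalytically inactive relative of the transglutaminases that binds band 3 and ankyrin. It lay at 9.03 and 9.27 in spleen control and at 9.12 and 9.16 in spleen IRP2. Bone marrow was more scattered, at 9.98 and 9.30 in control and 8.49 and 9.57 in IRP2. Both extremes were arrays of bone marrow replicate 1, control at the top and IRP2 at the bottom, and the spleen values lay inside that range. The other 12 arrays lay between 2.71 and 3.58, and the difference was 6.17 (SE 0.16). The second probe set, 1417338_at, did not follow it: its values were 4.06 to 5.61 in spleen and bone marrow and 3.91 to 5.70 elsewhere. It was 0.47 lower in spleen and bone marrow (a difference of -0.47, SE 0.20, limma adjusted p = 0.0445), a call that was lost with the replicate number as a block (adjusted p = 0.0928), with each array centred on its median (0.16), after quantile normalization (0.23), and when some single arrays were left out, bone marrow control replicate 1 among them (0.15).

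Rhag (1419014_at, chromosome 17) gave the sharpest split of the single probe set genes. Spleen lay at 9.69 and 10.18 in control and 10.02 and 10.24 in IRP2, and bone marrow at 10.63 and 9.79 in control and 10.17 and 9.99 in IRP2. The tissues overlapped fully apart from the first bone marrow control. Duodenum, liver and brain lay between 2.70 and 3.56, at the 2.86th to 17.6th percentile of their arrays. The difference was 7.10 (SE 0.16). Gata1, the tested probe sets of Slc4a1, Epb42 1417337_at, Ank1 1425677_a_at and Rhag reached the array median on spleen and bone marrow arrays alone. These 6 of the 11 tested could hardly miss a higher call, and no support is drawn from them.

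Car1 (1416193_at, chromosome 3) encodes the carbonic anhydrase that mature red cells hold in large amount. It lay at 9.30 and 9.28 in spleen control and 9.33 and 9.10 in spleen IRP2. Bone marrow lay at 9.35 and 8.56 in control and 8.04 and 8.51 in IRP2. The first bone marrow control reached the spleen level and the other 3 stayed below it. Liver was next at 6.12 ± 0.27, then duodenum at 5.48 ± 0.24 and brain at 4.995 ± 0.48 (SD, n = 4 arrays each), and the ranges of liver and duodenum did not overlap while those of duodenum and brain did. Car1 was 3.40 higher in spleen and bone marrow than elsewhere (SE 0.16, limma adjusted p = 2.7e-11).

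Ank1 (chromosome 8) encodes ankyrin of the red cell, which is also made in other tissues from other promoters. On 1419421_at spleen lay at 10.12 and 10.59 in control and 10.45 and 10.35 in IRP2, and bone marrow at 11.37 and 11.13 in control and 10.94 and 10.98 in IRP2. Bone marrow was thus above spleen on every array. Brain fell into 2 levels, 9.01 and 8.94 on the replicate 1 arrays and 10.67 and 10.70 on the replicate 2 arrays, and the replicate 2 values exceeded all 4 spleen arrays. Duodenum lay at 8.35 ± 0.05 and liver at 8.25 ± 0.19 (SD, n = 4 arrays each), overlapping each other. All 12 arrays outside spleen and bone marrow were above their array's median. The difference between the 2 sets of tissues was 1.93 (SE 0.22, limma adjusted p = 1.0e-06), 1.64 without both brain replicate 1 arrays and 2.21 without both brain replicate 2 arrays, alternatives chosen after seeing the data.

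The other Ank1 probe sets disagreed with it. Probe set 1425677_a_at was restricted in the same direction: 7.41, 7.43, 7.05 and 7.43 in bone marrow (control replicates 1 and 2, then IRP2 replicates 1 and 2), 5.77 to 5.91 in spleen and 4.47 to 5.26 in the other tissues, brain included. Its brain values, 4.65 ± 0.17 (SD, n = 4 arrays), showed no step between the replicates like that of 1419421_at. Probe set 1443291_at ran the other way on average, with a difference of -0.62 (SE 0.14, limma adjusted p = 0.0011). It lay at 5.13 to 5.79 in spleen and bone marrow and at 5.07 to 6.55 elsewhere, so the ranges overlapped. Its brain values also stepped between the replicates, opposite to 1419421_at. Both brain replicate 1 arrays lay above every spleen and bone marrow array. The brain replicate 2 arrays, at 5.07 and 5.12, lay below every spleen and bone marrow array. Probe set 1452512_a_at lay between 2.59 and 3.62 on all arrays and was not tested. Across the 20 arrays, which share tissues and pairs, the Pearson correlation of these probe sets with 1419421_at was 0.760, -0.829 and -0.659 in the order given, against 0.995 between the 2 bright probe sets of Slc4a1.

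**Figure D2:**
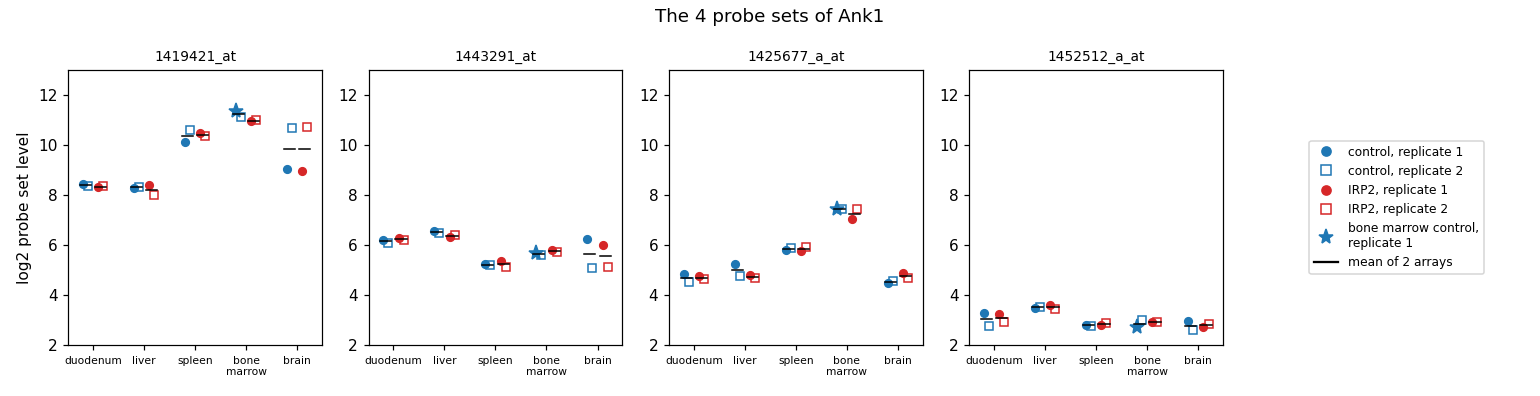
Log2 level (vertical axis) of the 4 probe sets of Ank1 in 5 tissues, with control arrays in blue, IRP2 arrays in red, replicate 1 filled and replicate 2 open, and bars at the mean of 2 arrays. Brain splits by replicate number on 1419421_at, near 9 against 10.7, and lies at the low level of duodenum and liver on 1425677_a_at. On 1443291_at brain splits the opposite way, with replicate 2 below replicate 1.

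Other genes of the lineage, from lists chosen with earlier results of these data known, were mostly high in the same tissues. Of 14 tested genes of the erythroid membrane and its skeleton besides the 7, 11 were higher in spleen and bone marrow and 1, Add2 (beta adducin), was lower, with a median difference of 2.67 against -0.20 over all probe sets tested. The highest were Cldn13 (5.38) and Ermap (4.90), a membrane protein of erythroid cells. All 10 other erythroid transcription factors were higher (9 with the replicate number as a random block), with a median of 2.56. They were led by Hemgn (8.30), Tal1 (5.02) and Myb (4.74). Hemgn reached at most 4.41 on the arrays of the other tissues, below each array's median. Of 7 heme synthesis genes 6 were higher, led by Alas2 (4.30), and of 12 genes of erythroid signalling and iron uptake 10 were higher, with the mitochondrial iron importer Slc25a37 at 2.74. The globins were poorly covered: 1 of 6 measured genes was tested, Hbb-b2, which was 5.94 higher. These comparisons mix erythroid with other blood cells. Also called higher were 12 of 12 myeloid, 9 of 10 B and T cell and 9 of 9 proliferation genes. The part of each cell type was not tested. Over all probe sets tested, 29% were called higher and 45.3% lower. Genes that reached the array median in spleen and bone marrow alone could hardly miss a higher call. How many did so in these lists was not counted, and no support is drawn from their calls.

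The pattern of the 7 genes was also compared across all 20 arrays. Excluding Ank1, Pearson correlations between pairs of the genes lay between 0.947 and 0.997, and those of Ank1 with the others between 0.627 and 0.823. Among 14793 other genes, those most like the mean standardised level of the members were Ermap (r = 0.998), 5430401H09Rik (0.998), Apol11b (0.996), Trim10 (0.996) and Fam117a (0.995). Tal1, Hemgn, Icam4, Rgs18 and Lyl1 followed, down to 0.991. The points share tissues and reaction pairs, so these values describe a step between 2 sets of tissues. Ermap, for instance, averaged 11.28 in spleen, 11.27 in bone marrow and 6.33 to 6.44 in the other tissues.

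On the deposited values, most of the 11 tested probe sets were not called between spleen and bone marrow, which does not show equal levels. With limma, 4 of the 11 tested probe sets were called: Car1 was higher in spleen, and Gata1, Ank1 1425677_a_at and Epb42 1417338_at were lower. In the same comparison 38.6% of all probe sets tested were called higher in spleen and 20.4% lower, and 4 of 11 does not stand out against those shares. Car1 was 0.64 higher in spleen (SE 0.25, adjusted p = 0.0345) and Gata1 0.46 lower (a difference of -0.46, SE 0.15, adjusted p = 0.0161). Ank1 1425677_a_at was lower by a difference of -1.50 (SE 0.15, adjusted p = 1.1e-06), or 2.82-fold, and Epb42 1417338_at by -1.04 (SE 0.31, adjusted p = 0.0094). Klf1 (-0.22, SE 0.22), Slc4a1 1416464_at (0.29, SE 0.20), Slc4a1 1434502_x_at (0.15, SE 0.23), Epb42 1417337_at (-0.19, SE 0.25), Rhag (-0.11, SE 0.24), Ank1 1419421_at (-0.72, SE 0.34) and Ank1 1443291_at (-0.47, SE 0.22) did not pass, with adjusted p from 0.079 to 0.71.

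These directions depend on how the arrays are put on a common scale. As deposited, the median of all probe sets tested was 0.16 higher in spleen, and all 6 housekeeping genes were called higher there (5 with the replicate number as a random block), with a median of 1.62. After quantile normalization over all arrays, 9 of the 11 were called, all lower in spleen, and the sign turned for Slc4a1 1416464_at (-0.88), Slc4a1 1434502_x_at (-1.02) and Car1 (-0.22, adjusted p = 0.35). Centring each array on its median left those at 0.40, 0.26 and 0.75. The share of calls that were higher was 65.4% as deposited and 49.4% after quantile normalization. Only Ank1 1425677_a_at and Epb42 1417338_at were called lower as deposited, under both scalings and with the replicate number as a random block, where Car1 had an adjusted p of 0.13 and Gata1 one of 0.12. Gata1 also missed the threshold after centring (adjusted p = 0.064). The count fell to 2 when spleen control replicate 1, spleen IRP2 replicate 1 or bone marrow control replicate 2 was left out, and rose to 6 without any 1 of the 4 brain arrays. Epb42 1417338_at is dim, at 4.06 to 4.16 in spleen and 4.34 to 5.61 in bone marrow. It reached the array median on 1 bone marrow array, control replicate 2, and 1 liver array alone. No weight is put on its call.

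**Figure D3:**
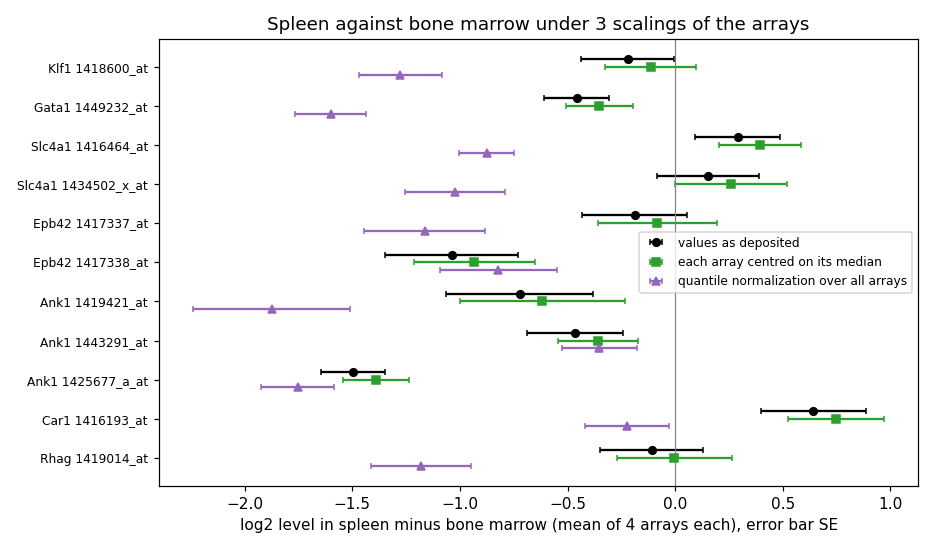
Difference in log2 level between spleen and bone marrow (horizontal axis, mean of 4 arrays each, error bars SE) for the 11 tested probe sets, on the deposited values, with arrays centred on their medians, and after quantile normalization. Quantile normalization moves the bright probe sets to the left, Slc4a1 1416464_at from 0.29 to -0.88, and the dim probe sets of Epb42 and Ank1 less.

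Bone marrow control replicate 1 carried part of the bone marrow level. Without it, Slc4a1 1416464_at was higher in spleen by 0.56 (limma adjusted p = 0.0070), Car1 by 0.84 (adjusted p = 0.011), and Gata1 lost its call (-0.33, adjusted p = 0.057). Other cell types differed between the tissues in the same arrays: 12 of 12 myeloid markers were called lower in spleen (median -3.14), 5 of 7 megakaryocyte markers lower (median -1.19) and 9 of 10 B and T cell markers higher (median 2.95). Of the other erythroid membrane genes, 1 of 14 was called higher in spleen (Aqp1, the water channel, 0.70) and 5 lower, among them Sptb (beta spectrin, -0.85) and Icam4 (-0.50). With the replicate number as a random block the membrane counts were 0 higher and 3 lower, so the Aqp1 call was lost, and 4 of the 7 megakaryocyte markers were called lower. The part of the other cells in these differences was not tested. With all arrays kept, as for these list counts, 38.6% of all probe sets tested were called higher in spleen and 20.4% lower.

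The comparison the series was designed for sets the IRP2 reaction against its control. None of the 11 tested member probe sets was called by limma in any of the 5 tissues, on the mean of the 5 tissues, or in the difference between the bone marrow and spleen ratios. The same counts of 0 were found by adjusted p with the replicate number as a block. In the fit without a block they were also 0 at an unadjusted p under 0.05. Unadjusted counts were not made for the block fit, where Car1 in bone marrow gave -0.68 (SE 0.24, limma adjusted p = 0.14). Of all probe sets tested, 0.063% were called in spleen, 0.00995% in bone marrow, 0.063% in brain, 0.073% in duodenum, 0.0332% in liver, 0.371% on the mean and 0.00332% in the difference of ratios, and at those shares a count of 0 among 11 is not a result about the members. A p that misses the threshold does not show equal recovery, and the SEs of the member ratios in a tissue ran from 0.21 for Gata1 to 0.48 for Ank1 1419421_at.

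In spleen the member ratios were small in both pairs. The 22 spleen ratios ran from -0.36 to 0.34, with 11 above 0 and 11 below. The signs split by pair: pair 1 had 9 above and 2 below (median 0.087), and pair 2 had 2 above and 9 below (median -0.11). Among all probe sets tested, those at a spleen level of 9 or more had median ratios of 0.045 in pair 1 and -0.14 in pair 2. Slc4a1 1416464_at gave 0.15 and -0.069 in pairs 1 and 2, Klf1 0.028 and -0.34, Car1 0.028 and -0.18, and Rhag 0.33 and 0.060. Gata1 alone of the brightest probe sets was below 0 in both pairs, at -0.29 and -0.24 (mean -0.27, SE 0.21), and Rhag alone was above 0 in both (mean 0.19, SE 0.34). For comparison, Alas2, the erythroid mRNA with an IRE, gave 2.20 and 1.94 in the same pairs (mean 2.07, limma adjusted p = 0.0024). The mean ratios of the other erythroid genes stayed near those of the members: -0.20 to 0.12 for 14 membrane genes, -0.11 to 0.09 for 10 transcription factors and -0.16 to 0.16 for 12 signalling and iron uptake genes.

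In duodenum, liver and brain the 66 ratios ran from -0.47 to 0.72, with 34 above 0 and 32 below. The largest was that of Klf1 in brain pair 2. There the control lay at 4.81 and the IRP2 array at 5.54, at the 39.6th and 52.3rd percentile of their arrays. Brain pair 1 gave Klf1 a ratio of -0.027. Car1 in liver was above 0 in both pairs, at 0.29 and 0.28, and did not pass (mean 0.28, SE 0.35). Apart from Ank1 1419421_at, the brightest probe sets lay at or below the 68.6th percentile of these arrays.

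**Figure D4:**
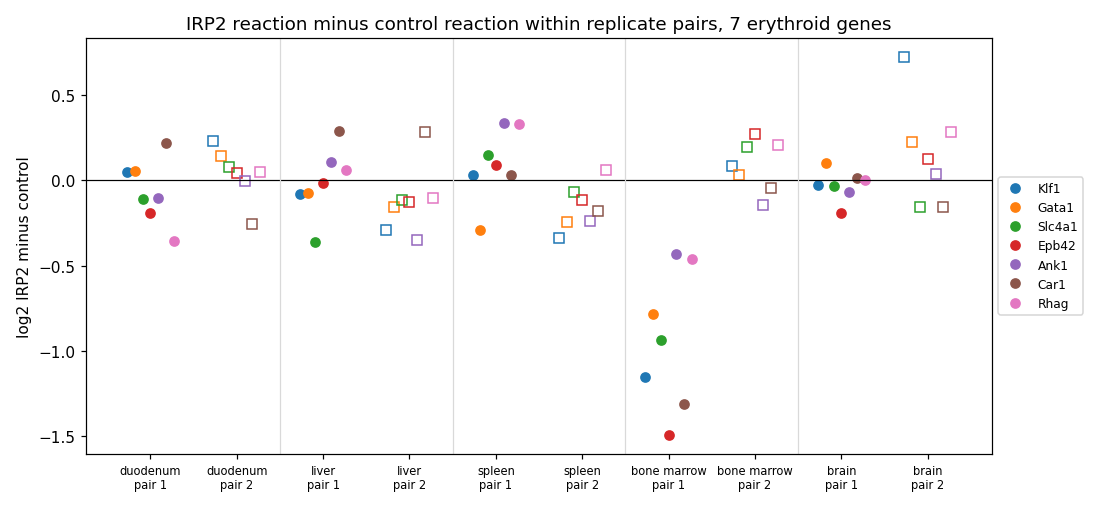
Log2 IRP2 minus control (vertical axis) in each of 10 replicate pairs for the brightest probe set of 7 erythroid genes, 1 colour per gene, with pair 1 filled and pair 2 open. Bone marrow pair 1 lies between -1.49 and -0.43 for all 7 genes, and the ratios of the other 9 pairs run from -0.36 to 0.72.

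Bone marrow held the largest member ratios, and they came from 1 pair. In bone marrow pair 1 the ratio was -1.49 for Epb42 1417337_at, -1.31 for Car1, -1.15 for Klf1, -0.94 for Slc4a1 1416464_at, -0.79 for Gata1, -0.46 for Rhag and -0.43 for Ank1 1419421_at. The 2 pairs did not overlap for the brightest probe sets: in pair 2 the same probe sets gave, in that order, 0.27, -0.048, 0.083, 0.19, 0.031, 0.21 and -0.15. Slc4a1 1434502_x_at gave -0.48 and 0.19, and Ank1 1425677_a_at -0.37 and 0.0065. The dim probe set Epb42 1417338_at ran opposite to its brighter partner, at 0.77 in pair 1 and -0.14 in pair 2, and Ank1 1443291_at was at 0.11 in both. Over all 11, the mean ratio in bone marrow had a median of -0.29, against -0.040 over all probe sets tested.

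The low ratios of pair 1 went with a high control array and, for 5 of the 7 genes, with a low IRP2 array. Bone marrow IRP2 replicate 1 was the lowest of the 4 bone marrow arrays for Klf1, Gata1, Epb42, Ank1 and Car1, and the mean of the 7 genes on it was 9.77, against 10.71 on control replicate 1, 10.02 on control replicate 2 and 10.10 on IRP2 replicate 2. Bone marrow control replicate 1 was above the other 3 bone marrow arrays for all 7 genes on their brightest probe set, and for 8 of the 11 tested probe sets, where 44.3% of all probe sets tested did the same. Its excess over the mean of the other 3 was 0.98 for Car1, 0.96 for Slc4a1, 0.86 for Epb42, 0.85 for Klf1, 0.65 for Rhag, 0.58 for Gata1 and 0.35 for Ank1. Bright probe sets in general were raised on this array: those at a level from 8 to 9 on the other 3 arrays were higher by a median of 0.57, those from 9 to 10 by 0.68, those from 10 to 11 by 0.78 and those from 11 to 12 by 0.86. Car1, Slc4a1, Epb42 and Klf1 were above the median of their bin, and Rhag, Gata1 and Ank1 below it.

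Myeloid, housekeeping and cell cycle genes shared the excess. Of all 30153 probe sets tested, 17934 were above the mean of the other 3 arrays, with a median excess of 0.14. An excess was present in 12 of 12 myeloid markers (median 1.14), 6 of 6 housekeeping genes (median 1.06), 9 of 9 proliferation genes (median 0.99) and 10 of 10 other erythroid transcription factors (median 0.74). For B and T cell markers it was nearer to the share over all probe sets (7 of 10, median 0.37). On average it was absent for spleen macrophage and stroma markers (5 of 10, median -0.027). The same held for megakaryocyte and platelet markers (3 of 7, median -0.15). These lists were not matched for level. What made this array correlate more with the spleen arrays than the other bone marrow arrays did was not tested. In pair 1 as a whole, the ratio of the 2705 probe sets at a bone marrow level of 9 or more had a median of -0.52, against 0.13 in pair 2, and the 4271 probe sets under 5 had medians of 0.083 and 0.0011. The part of this array-wide spread in the member ratios was not tested.

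**Figure D5:**
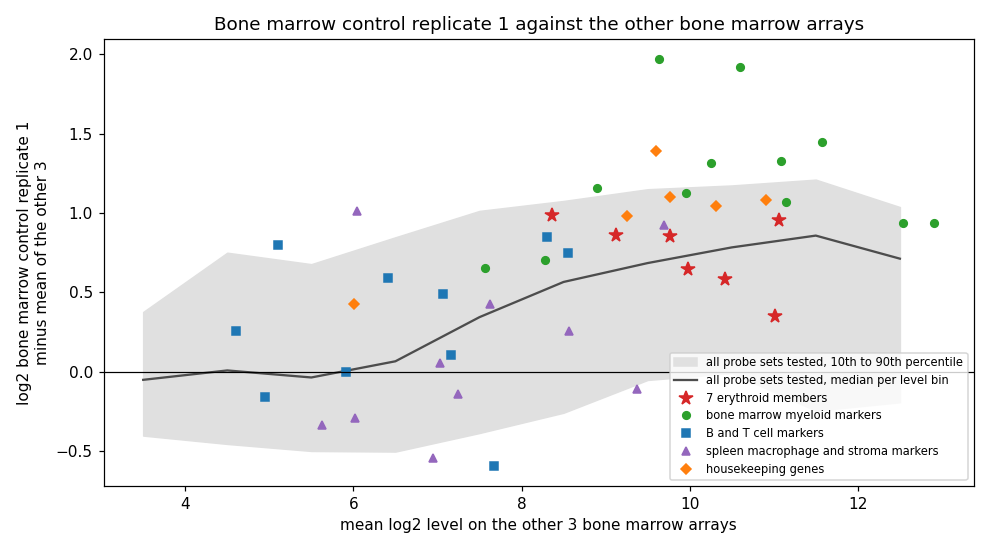
Log2 excess of bone marrow control replicate 1 over the mean of the other 3 bone marrow arrays (vertical axis) against that mean (horizontal axis). The line is the median and the grey band the 10th to 90th percentile of all probe sets tested in bins of 1 log2 unit, and the symbols are single genes of 5 lists. The 7 erythroid genes lie between 0.35 and 0.98, all inside the grey band.

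The bone marrow ratios moved with the control array that was kept. Without bone marrow control replicate 1 the ratios of the 11 probe sets ran from -0.32 to 0.30. With it and without bone marrow control replicate 2, Slc4a1 1416464_at was called lower in the IRP2 reaction (-0.90, limma adjusted p = 0.044), in a fit that called 1679 probe sets lower, where the lone control is assumed to vary like the other groups. Alas2 gave 0.52 in pair 1 and 1.36 in pair 2 (mean 0.94, limma adjusted p = 0.63, and 0.0489 with the replicate number as a block). The difference between the bone marrow and spleen ratios was largest for Car1 (-0.60, SE 0.49) and Epb42 1417337_at (-0.60, SE 0.49), both with a limma adjusted p of 0.99999.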

How the data were processed

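Each deposited value is a probe set summary on the log2 scale, for which the authors corrected background, normalized the arrays and summarised the probes, per the series' design text. The submitters' processing notes name RMA, MAS5 and GCOS, without versions, and the sources used here do not say which of them made these values. Array medians fell into 2 ranges, so other scalings were tried. A low value has no detection call, so it is not shown to be absence, and fold changes of dim groups are compressed by background.

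Of 45101 probe sets, 64 were Affymetrix controls and 30153 were tested, those that reached their own array's median on at least 2 of 20 arrays. A limma model (limma 3.58.1, R 4.3.3) gave each of the 10 tissue and reaction groups its own mean, with 10 degrees of freedom left and 5.34 added by the prior. The Benjamini-Hochberg adjustment ran over all probe sets tested, and an adjusted p below 0.05 was called. The precision is the spread between 2 arrays a group, pooled over groups. Arrays with the same replicate number deviated together (correlation 0.923 for brain, 0.251 for bone marrow, 0.385 for spleen, 0.565 for liver and 0.676 for duodenum), and the numbers were treated as pairs, from these values and not from the labels. A second fit used the pair as a block. Level comparisons took it as a random block (correlation 0.635). Alternatives were median centring, quantile normalization, other filters, array weights, an intensity trend, the mean of all probe sets of a gene and leaving out each array. The fits were tested on simulated data.

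The members and gene lists were chosen with earlier results of these data known. The text names all probe sets of the members, the 10 genes most alike in Pearson correlation, and from the other lists up to 4 genes of the highest mean level and any called in the spleen, bone marrow or spleen minus bone marrow comparisons; other genes were chosen after their values were seen. Where a gene had several probe sets, the one with the highest mean was its brightest. Figures were drawn with matplotlib 3.10.9. Promoter sequences are from RefSeq on GRCm38.p6, for 4 of the members.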

Additional observations from a re-analysis of the deposited data

How the results depend on the processing

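The alternatives changed the call of few values. Of 3060 pairs of a value and an alternative, 37 fell below the threshold, 21 passed it and 3 turned sign. A further 144 uncalled values changed sign. The counts of members called in the IRP2 comparisons stayed at 0 under every alternative run but one: in bone marrow, leaving out 1 array at a time gave 0 to 1, with 1 without bone marrow control replicate 2. For level in spleen minus bone marrow, 4 members were called as deposited, 9 after quantile normalization, 2 with the replicate block, 2 to 6 when 1 array was left out and 2 without both arrays of spleen replicate 2, chosen after seeing the data. Quantile normalization turned Slc4a1 1416464_at to -0.88, Slc4a1 1434502_x_at to -1.02 and Car1 1416193_at to -0.22, and the cause was not tested. For level in spleen and bone marrow minus other tissues, 10 to 11 members were called when 1 array was left out. There, the higher share of all calls was 39.0% as deposited, 49.4% with arrays centred on their medians and 49.8% after quantile normalization, and the median of all probe sets moved from -0.20 to -0.017. The block, used as a pair, changed no other call of a member apart from those of Epb42 1417338_at, Car1 and Gata1 given above. With 2 arrays a group and no detection calls, small ratios and levels near background cannot be resolved.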
